A study of Homo sapiens with 24 samples.

Results

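The genes described here are the MHC class II genes and their transcriptional coactivator CIITA. The members are HLA-DRA, HLA-DRB1, HLA-DPA1, HLA-DPB1, HLA-DQA1, HLA-DMA, HLA-DMB, CD74 and CIITA, taken as the rows of the expression table that carry these symbols, which gave 9 of its 30373 rows. Poly-A RNA was sequenced from 4 established human cell lines. Of these, 3 come from acute myeloid leukaemia (AML): SKM-1, MV-4-11 and Kasumi-1. The other, NCI-H1299, comes from a non-small cell lung carcinoma. Each line was kept in RPMI-1640 with 10% FBS and received, for 24 h, the solvent DMSO, ABBV-075 at 100 nM or ABBV-744 at 200 nM. BET proteins read histone acetylation through a pair of bromodomains. ABBV-075 (mivebresib) inhibits both domains, whereas ABBV-744 prefers the second. Each of the 12 groups of line and treatment holds 2 libraries. Whether these came from separate cultures is not labelled, so the p-values below speak of the spread between the libraries alone, which may be technical. The doses of the compounds differ, so their values are set side by side without a test between them.

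MHC class II molecules display peptides from endocytosed and endogenous proteins to CD4+ T cells. Their α and β chains (HLA-DRA with HLA-DRB1, HLA-DPA1 with HLA-DPB1, HLA-DQA1 with HLA-DQB1) assemble around the invariant chain CD74, and HLA-DM (HLA-DMA with HLA-DMB) later exchanges the CD74 remnant for peptide. Transcription of these genes rests on the RFX, CREB and NF-Y factors, which sit on the X and Y boxes of the promoters, and on CIITA, which binds no DNA itself and is recruited by them. In AML, expression of these genes on blasts is variable, and its loss has been described in leukaemia that relapses after allogeneic transplantation.

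The boxes on which these factors meet can be seen in the promoters of several members. RefSeq promoter windows (build GRCh38.p14, 250 bases before to 50 after the start) were matched for 7 of the 9 members, with 2 windows for HLA-DPA1. HLA-DRA and CIITA had no entry. The capitals mark letters that match an X-box core (ACNGATG) or a Y core. The Y core is that of an NF-Y site, as in the Y box (ATTGG, or CCAAT where it lies on the other strand). For the capitals and for the shares of single cores, both were searched on both strands. The letters do not overlap each other. The letters were chosen after these sequences had been seen. The first 3 stretches hold both cores in the order X then Y, and the last 2 hold the Y core alone, although the CD74 window has an X core elsewhere.
HLA-DRB1: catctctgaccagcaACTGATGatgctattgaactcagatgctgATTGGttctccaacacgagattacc
HLA-DMA: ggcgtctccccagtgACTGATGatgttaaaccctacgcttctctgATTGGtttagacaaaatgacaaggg
HLA-DMB: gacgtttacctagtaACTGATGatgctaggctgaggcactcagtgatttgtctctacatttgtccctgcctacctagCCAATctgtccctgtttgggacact
HLA-DQA1: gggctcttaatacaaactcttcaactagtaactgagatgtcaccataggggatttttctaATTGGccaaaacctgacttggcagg
CD74: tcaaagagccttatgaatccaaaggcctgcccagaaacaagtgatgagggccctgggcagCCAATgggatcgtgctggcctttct

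The stretches lie at chr6:32589870-32589938 (minus strand, HLA-DRB1), chr6:32953152-32953221 (minus strand, HLA-DMA), chr6:32941026-32941127 (minus strand, HLA-DMB), chr6:32637278-32637362 (plus strand, HLA-DQA1) and chr5:150412939-150413023 (minus strand, CD74). The X core of HLA-DRB1 and that of HLA-DMA were followed by the Y core after 22 and 23 bases, and that of HLA-DMB after 55. This wider gap of HLA-DMB is unlike the others, and whether its CCAAT is the Y box of that promoter was not tested. Of 34943 RefSeq promoter windows of the same length, 7.66% held the X core, 34.6% the Y core and 0.318% an X core followed 11 to 60 bases later by a Y core. For this ordered pair the X core was searched on the strand of the gene only, and the Y core on both. Among the members, the ordered pair was found in 3, HLA-DRB1, HLA-DMA and HLA-DMB. A match is a description of the letters in a window, and its absence says only that these letters were not in that window.

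Expression was deposited as FPKM, fragments scaled to transcript length and library size, which allows levels to be compared between genes. Read counts were not used here and the depth of the libraries is unknown, so a value of 0 is given as listed at 0. The 2 libraries of SKM-1 in DMSO stood furthest apart. Their log2 values differed with an SD of 0.472, against 0.334 for Kasumi-1 with ABBV-075 and 0.146 to 0.224 for the other 10 groups. Mitochondrial transcripts took 22.3% of the FPKM sum in SKM-1 DMSO replicate 2, 9.13% in replicate 1 and 6.65% to 16.3% in the other 22 libraries. For the tested members, SKM-1 differences from DMSO are therefore also given without DMSO replicate 2. The SKM-1 values of all other named genes and of the lists are given with both DMSO libraries only. The 5 pan-leucocyte markers (PTPRC, LCP1, CORO1A, LAPTM5, WAS) all reached 1 FPKM in every AML group, and their summed level was 101 to 2484 FPKM there and 2.74 to 4.07 FPKM in NCI-H1299. Of 7 epithelial and lung carcinoma markers (KRT8, KRT18, KRT19, EPCAM, CDH1, EGFR and VIM), 4 reached 1 FPKM in each NCI-H1299 group. Among them were KRT8 at 153 to 423 FPKM and KRT18 at 363 to 937 FPKM. KRT8 and KRT18 also passed the filter used for tests in MV-4-11, EPCAM passed it in SKM-1 and VIM in both. The 7 markers summed to 2075 to 3038 FPKM in NCI-H1299, but also to 299 to 384 FPKM in MV-4-11. The B-cell gene MS4A1 was listed at 0 in every AML library, and no T cell marker reached 1 FPKM. The 6 B cell markers nevertheless summed to 16.8 to 17.9 FPKM in Kasumi-1 DMSO, nearly all of it CD79B.

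In untreated cells HLA-DRA, HLA-DRB1, HLA-DPB1, HLA-DMA and CD74 reached 1 FPKM in every library of the 3 AML lines. HLA-DPA1 and HLA-DMB stayed below 1 FPKM in Kasumi-1. Levels were highest in MV-4-11 for most members and under 1 FPKM in the carcinoma line for all. CD74, the invariant chain, was the most abundant member per length, at 372 and 417 FPKM in MV-4-11, 73.5 and 122 FPKM in SKM-1 and 72.6 and 86.6 FPKM in Kasumi-1. HLA-DRA, the α chain of HLA-DR, followed with 81.9 and 84.6 FPKM in MV-4-11, 14.4 and 21.8 FPKM in SKM-1 and 9.2 and 11 FPKM in Kasumi-1. The order of the lines was the same for both, but for CD74 the ranges of SKM-1 and Kasumi-1 overlapped. CIITA was at 4.43 and 5.17 FPKM in MV-4-11, 1.35 and 1.54 FPKM in SKM-1 and 0.936 and 1.19 FPKM in Kasumi-1. HLA-DQA1 stayed at or under 0.425 FPKM in all 24 libraries and was listed at 0 in Kasumi-1 and NCI-H1299, and so was never tested.

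Tests used limma on log2(FPKM + 1) over all rows that reached 1 FPKM in at least 2 of the libraries compared, with p-values adjusted over all of those rows, and a difference was called at an adjusted p under 0.05. For 1 gene taken alone, exact permutation of 2 and 2 libraries reaches no p below 0.333, and limma therefore borrows its spread from the other groups and genes. Between MV-4-11 and Kasumi-1 in DMSO, all 8 tested members were higher in MV-4-11, where 36.7% of all tested rows were called higher and 25.9% lower. HLA-DRB1, the β chain of HLA-DR, differed most, by 4.26 ± 0.23 (log2, SE). HLA-DPA1 and HLA-DMB had no Kasumi-1 DMSO library at 1 FPKM, so they passed the filter only through MV-4-11 and had to differ. Between SKM-1 and MV-4-11, 5 members were lower in SKM-1 (HLA-DRA, HLA-DRB1, HLA-DMA, CD74 and CIITA), against 30.5% of all rows. HLA-DMB, the β chain of HLA-DM, was the 1 member higher in SKM-1, against 32.3% of all rows, at 2.32 and 3.54 FPKM against 1.04 and 1.42 FPKM in MV-4-11. HLA-DPA1 and HLA-DPB1 were not called between these lines (adjusted p = 0.132 and 0.114), but both were lower in SKM-1 once DMSO replicate 1 was left out (adjusted p = 4.73e-04 and 0.00405).

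SKM-1 exceeded Kasumi-1 in DMSO for 5 of 8 tested members (HLA-DRA, HLA-DRB1, HLA-DPA1, HLA-DMA and HLA-DMB), where 37.0% of all tested rows were higher and 25% lower. HLA-DPA1 and HLA-DMB passed the filter only through SKM-1, so 2 of the 5 had to differ. CD74, HLA-DPB1 and CIITA were not called (adjusted p = 0.306, 0.126 and 0.0752), although the CIITA libraries of the lines did not overlap. The count ran from 3 to 7 when single libraries were left out, so the order of SKM-1 and Kasumi-1 rests on few libraries. Without SKM-1 DMSO replicate 2 it was 7, and without replicate 1 it was 3. HLA-DMA and HLA-DMB, the chains of one dimer, had unlike profiles over the lines. HLA-DMA was at 16.9 and 21.2 FPKM in MV-4-11, 2.62 and 4.44 FPKM in SKM-1 and 1.87 and 2.04 FPKM in Kasumi-1, whereas HLA-DMB was at only 0.106 and 0.202 FPKM in Kasumi-1.

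**Figure D1:**
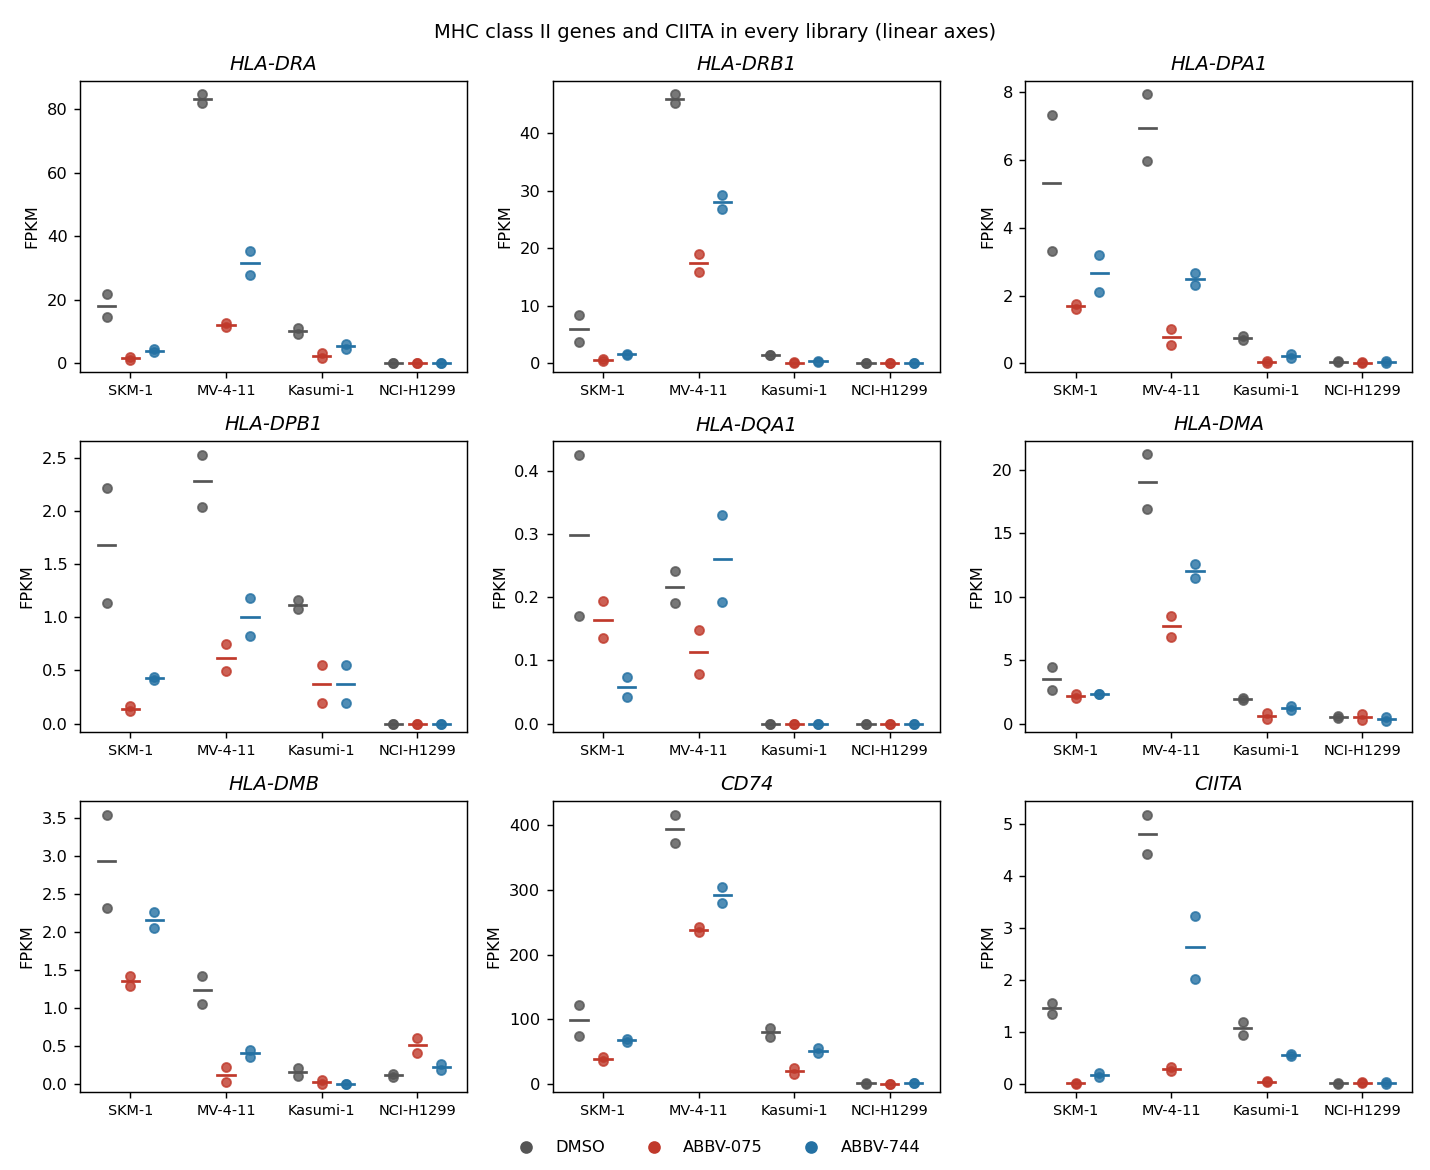
FPKM (linear axes, one panel per gene) of the 9 members in all 24 libraries, by line and coloured by treatment. Points are libraries and short bars the means of 2. Red (ABBV-075) and blue (ABBV-744) points lie below grey (DMSO) in the AML lines for most members, and the NCI-H1299 libraries stay under 1 FPKM.

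CIITA, the coactivator of the other members' promoters, fell with ABBV-075 to a few percent of its DMSO level. In SKM-1 it went from 1.35 and 1.54 FPKM to 0.0126 FPKM in 1 library and a listed 0 in the other. In MV-4-11 it went from 4.43 and 5.17 to 0.236 and 0.318 FPKM. In Kasumi-1 it went from 0.936 and 1.19 to 0.0328 and 0.0445 FPKM. No treated library overlapped a DMSO library in any of the 3 lines, and the treated means were 0.436%, 5.77% and 3.63% of the DMSO means. The log2(FPKM + 1) differences were -1.28 ± 0.12 in SKM-1 and -2.18 ± 0.12 in MV-4-11 (adjusted p = 1.33e-07 and 5.60e-10). Since 1 FPKM is added, this scale understates the fall of low genes, and the largest fall it allows from the DMSO level of CIITA is 1.29 in SKM-1, 2.53 in MV-4-11 and 1.04 in Kasumi-1. In Kasumi-1 CIITA did not reach the filter, and in a fit of all rows it differed by -0.99 ± 0.14 (adjusted p = 1.80e-04). In SKM-1 CIITA passed the filter only through its DMSO libraries and had to differ, so its p-values there, with either compound, are descriptions.

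With ABBV-744 the CIITA level that remained differed by line. It was 0.137 and 0.2 FPKM in SKM-1, or 11.6% of the DMSO mean. It was 2.02 and 3.22 FPKM in MV-4-11, or 54.6%, and 0.529 and 0.577 FPKM in Kasumi-1, or 51.9%. Every treated library again lay below every DMSO library of its line. CIITA fell by 1.07 ± 0.12 in SKM-1 (adjusted p = 8.49e-06) and fell by 0.70 ± 0.12 in MV-4-11 (adjusted p = 8.30e-04). Without SKM-1 DMSO replicate 2 the SKM-1 differences of CIITA were -1.34 with ABBV-075 and -1.12 with ABBV-744, and without replicate 1 they were -1.22 and -1.01. In Kasumi-1, in the fit of all rows, the difference of -0.41 ± 0.14 had an adjusted p of 0.145. Since these are bulk samples, fewer cells with a transcript and less transcript per cell cannot be told apart, here and for the other members.

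HLA-DRA fell in every AML line with both compounds. In SKM-1 it went from 14.4 and 21.8 FPKM in DMSO to 1.24 and 2.04 FPKM with ABBV-075 and, with ABBV-744, to 3.56 and 4.49 FPKM. In MV-4-11 it went from 81.9 and 84.6 to 11.5 and 12.7 FPKM and to 27.7 and 35.5 FPKM. In Kasumi-1 it went from 9.2 and 11 to 1.83 and 3.14 FPKM and to 4.67 and 6.24 FPKM. The groups overlapped in none of these comparisons, and the means left were 9.07%, 14.5% and 24.6% of DMSO with ABBV-075 and 22.2%, 38% and 54% with ABBV-744. The differences were -2.84 ± 0.21, -2.69 ± 0.21 and -1.69 ± 0.21 with ABBV-075 (adjusted p = 1.50e-08, 6.04e-08 and 5.83e-06). With ABBV-744 they were -1.91 ± 0.21, -1.38 ± 0.21 and -0.79 ± 0.21 (adjusted p = 1.08e-05, 4.05e-04 and 0.0132). The Kasumi-1 call with ABBV-744 ended without DMSO replicate 2 (adjusted p = 0.104) or without ABBV-744 replicate 1 (adjusted p = 0.134). Without SKM-1 DMSO replicate 2 the SKM-1 differences of HLA-DRA were -3.12 and -2.19, and without replicate 1 they were -2.57 and -1.63.

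HLA-DRB1 moved with HLA-DRA, by a smaller fraction in MV-4-11. In SKM-1 it was at 3.65 and 8.45 FPKM in DMSO, 0.409 and 0.785 FPKM under ABBV-075 and 1.46 and 1.71 FPKM under ABBV-744. In MV-4-11 it was at 45.3 and 46.8, then 15.8 and 19.1, and 26.9 and 29.4 FPKM, and in Kasumi-1 at 1.4 and 1.51, then 0.0401 and 0.226, and 0.309 and 0.48 FPKM. No treated group reached the DMSO range. The MV-4-11 means left were 37.9% with ABBV-075 and 61.1% with ABBV-744, against 9.17% to 9.87% and 26.2% to 27.2% in the other AML lines. ABBV-075 gave called differences of -2.06 ± 0.23, -1.36 ± 0.23 and -1.12 ± 0.23 in SKM-1, MV-4-11 and Kasumi-1. In Kasumi-1 HLA-DRB1 passed the filter only through its DMSO libraries and had to differ, so its calls there, with either compound, are descriptions. ABBV-744 gave a called fall in SKM-1 (-1.36 ± 0.23, adjusted p = 4.16e-04) and Kasumi-1 (-0.82 ± 0.23, adjusted p = 0.0155), and in MV-4-11 a difference of -0.69 ± 0.23 that was not called (adjusted p = 0.0604). The Kasumi-1 call with ABBV-744 was lost without DMSO replicate 1, DMSO replicate 2 or ABBV-744 replicate 2 (adjusted p = 0.0610, 0.0809 and 0.106) and in a fit of all rows (0.109). The SKM-1 call with ABBV-744 was lost in a fit of that line alone (adjusted p = 0.0960), and its size was -0.85 without DMSO replicate 1. Without SKM-1 DMSO replicate 2 the SKM-1 differences were -2.57 and -1.87, and with ABBV-075 the difference was -1.55 without replicate 1. The HLA-DRB genes are near-identical copies and differ between people. How reads were shared between HLA-DRB1, HLA-DRB5 and HLA-DRB6, and how well each line's alleles match the reference, is not stated in the labels or the file, which leaves HLA-DRB1 values uncertain, most of all between lines.

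HLA-DPA1 and HLA-DPB1 encode the α and β chains of HLA-DP. HLA-DPA1 went from 3.3 and 7.32 FPKM to 1.61 and 1.76 FPKM with ABBV-075 in SKM-1 and from 5.97 and 7.93 to 0.554 and 1.01 FPKM in MV-4-11, differences of -1.15 ± 0.22 and -2.16 ± 0.22 (adjusted p = 3.40e-04 and 1.26e-06). With ABBV-744 it was at 2.12 and 3.19 FPKM in SKM-1 and 2.31 and 2.67 FPKM in MV-4-11, with differences of -0.73 ± 0.22 and -1.18 ± 0.22 (adjusted p = 0.0247 and 0.00235). Without DMSO replicate 2 the SKM-1 difference with ABBV-075 was -1.63, and without replicate 1 it was -0.68. The SKM-1 call with ABBV-744 rests on DMSO replicate 1, without which the difference was -0.25 (adjusted p = 0.254). It also ended without ABBV-744 replicate 1, at -0.51 (adjusted p = 0.208), and without DMSO replicate 2 it was -1.20. In Kasumi-1 HLA-DPA1 was under the filter, at 0.693 and 0.799 FPKM in DMSO, 0.0734 FPKM and a listed 0 with ABBV-075, and 0.173 and 0.286 FPKM with ABBV-744.

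HLA-DPB1 was lower with both compounds in all 3 lines. Its DMSO levels of 1.14 and 2.22 FPKM in SKM-1, 2.04 and 2.53 FPKM in MV-4-11 and 1.07 and 1.16 FPKM in Kasumi-1 went to 8.3%, 27.1% and 33.1% with ABBV-075 and 25.3%, 43.9% and 33.5% with ABBV-744. In SKM-1 and Kasumi-1 HLA-DPB1 passed the filter only through its DMSO libraries and had to differ, so its p-values there are descriptions. In MV-4-11 it reached 1 FPKM in 2 DMSO libraries, 1 ABBV-744 library and no ABBV-075 library. Without DMSO it would not have passed, so its p-values in MV-4-11 are descriptions too. The differences were -1.20 ± 0.17, -1.02 ± 0.17 and -0.64 ± 0.17 with ABBV-075 (adjusted p = 1.71e-05, 1.67e-04 and 0.00448). With ABBV-744 they were -0.88 ± 0.17, -0.72 ± 0.17 and -0.64 ± 0.17 (adjusted p = 0.00139, 0.0115 and 0.0129). The call with ABBV-075 in Kasumi-1 was lost without ABBV-075 replicate 2 (adjusted p = 0.0734). With ABBV-744 the Kasumi-1 call was lost without DMSO replicate 1, DMSO replicate 2 or ABBV-744 replicate 1 (adjusted p = 0.0527, 0.0734 and 0.160) and in a fit of all rows (0.0998). The MV-4-11 call with ABBV-744 was lost without DMSO replicate 2 or ABBV-744 replicate 1 (adjusted p = 0.118 and 0.112), in a fit of all rows (0.0890) and with 0.1 FPKM added (0.0979). Without SKM-1 DMSO replicate 2 the SKM-1 differences were -1.50 and -1.18, and without replicate 1 they were -0.91 and -0.59. The SKM-1 call with ABBV-744 was lost in a fit of that line alone (adjusted p = 0.0880). HLA-DPA1 and HLA-DPB1 overlap on opposite strands in RefSeq, and whether fragments were counted by strand is not stated in the labels or the file. Reads of the 2 genes may therefore be mixed.

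HLA-DQA1, the α chain of HLA-DQ, was too low for a test in every line. In SKM-1 it was at 0.171 and 0.425 FPKM in DMSO, 0.135 and 0.194 FPKM with ABBV-075 and, with ABBV-744, 0.0427 and 0.0742 FPKM. In MV-4-11 the means were 0.216 FPKM in DMSO, 0.113 FPKM with ABBV-075 and 0.26 FPKM in cells given ABBV-744, and the ABBV-744 range overlapped that of DMSO. In a fit of all rows HLA-DQA1 was lower in SKM-1 with ABBV-744 (-0.29 ± 0.07, adjusted p = 0.0291), and with 0.1 FPKM added the difference was -1.26 (adjusted p = 0.0122). Its level lies far under the filter and the depth is unknown.

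HLA-DM, the peptide editor, changed by a smaller fraction than HLA-DR in SKM-1. HLA-DMA there was at 2.62 and 4.44 FPKM in DMSO, 2.02 and 2.35 FPKM with ABBV-075 and, with ABBV-744, 2.33 and 2.34 FPKM. The groups did not overlap, but neither difference was called (-0.48 ± 0.20 and -0.41 ± 0.20, adjusted p = 0.0512 and 0.144). Both were called without DMSO replicate 2, at -0.77 and -0.71 (adjusted p = 0.00620 and 0.0284). Without DMSO replicate 1 they were -0.19 and -0.12 (adjusted p = 0.461 and 0.674). In MV-4-11 HLA-DMA went from 16.9 and 21.2 to 6.87 and 8.51 FPKM with ABBV-075, a difference of -1.21 ± 0.20 (adjusted p = 1.81e-04), and to 11.5 and 12.6 FPKM with ABBV-744, a difference that was not called (-0.62 ± 0.20, adjusted p = 0.0646). In Kasumi-1 HLA-DMA fell by 0.92 ± 0.20 with ABBV-075 (adjusted p = 0.00111), to 0.324 and 0.833 FPKM. With ABBV-744 it was at 1.03 and 1.35 FPKM and was not called (-0.44 ± 0.20, adjusted p = 0.138).

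HLA-DMB went from 2.32 and 3.54 to 1.29 and 1.42 FPKM in SKM-1 with ABBV-075, a difference of -0.72 ± 0.13 (adjusted p = 1.38e-04). With ABBV-744 it was at 2.05 and 2.26 FPKM, just under the DMSO range, and the difference of -0.30 ± 0.13 was not called (adjusted p = 0.0915). Without DMSO replicate 2 it was -0.53 (adjusted p = 0.00462) and without replicate 1 it was -0.07 (adjusted p = 0.635). The difference with ABBV-075 was -0.95 without DMSO replicate 2 and -0.49 without replicate 1. In MV-4-11 HLA-DMB went from 1.04 and 1.42 to 0.0271 and 0.213 FPKM with ABBV-075 and to 0.356 and 0.447 FPKM with ABBV-744, both called (-1.0 ± 0.13 and -0.67 ± 0.13, adjusted p = 1.15e-05 and 0.00233). It passed the filter there only through its DMSO libraries and had to differ, so these p-values are descriptions. In Kasumi-1 it was under the filter throughout.

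CD74 kept more of its level than HLA-DRA in SKM-1 and MV-4-11. In SKM-1 it was at 73.5 and 122 FPKM in DMSO, 34.6 and 40.6 FPKM with ABBV-075 and, with ABBV-744, 64.7 and 69.7 FPKM. In MV-4-11 it was at 372 and 417, then 234 and 242, and 280 and 304 FPKM, and in Kasumi-1 at 72.6 and 86.6, then 15.2 and 23.7, and 46.9 and 55.1 FPKM. Treated and DMSO ranges were apart in each case. ABBV-075 gave called differences of -1.32 ± 0.21 in SKM-1, -0.72 ± 0.21 in MV-4-11 and -2.01 ± 0.21 in Kasumi-1 (adjusted p = 5.53e-05, 0.0112 and 9.09e-07). The MV-4-11 call was lost without DMSO replicate 2 (adjusted p = 0.0771) or ABBV-075 replicate 1 (adjusted p = 0.0591), and in a fit of all rows (adjusted p = 0.0711).

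With ABBV-744, CD74 was called in Kasumi-1 (-0.63 ± 0.21, adjusted p = 0.0392) and not in SKM-1 or MV-4-11 (-0.49 ± 0.21 and -0.43 ± 0.21, adjusted p = 0.0937 and 0.223). The Kasumi-1 call was lost when any of its 4 libraries was left out (adjusted p = 0.0653 to 0.226). In SKM-1 the difference was called without DMSO replicate 2 (-0.85, adjusted p = 0.00622) and was -0.13 without replicate 1 (adjusted p = 0.614). With ABBV-075 the SKM-1 difference was -1.68 without DMSO replicate 2 and -0.95 without replicate 1. The ratio of CD74 to HLA-DRA, both per length, was 5.09 and 5.62 in SKM-1 in DMSO, 16.9 and 32.8 with ABBV-075 and 14.4 and 19.6 with ABBV-744. In MV-4-11 it was 4.55 and 4.93, then 18.5 and 21.1, and 7.89 and 11. In Kasumi-1 it was 6.6 and 9.41 in DMSO and 7.55 and 8.29 with ABBV-075, so the ranges of treated and control libraries overlapped there and were apart in the other lines.

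**Figure D2:**
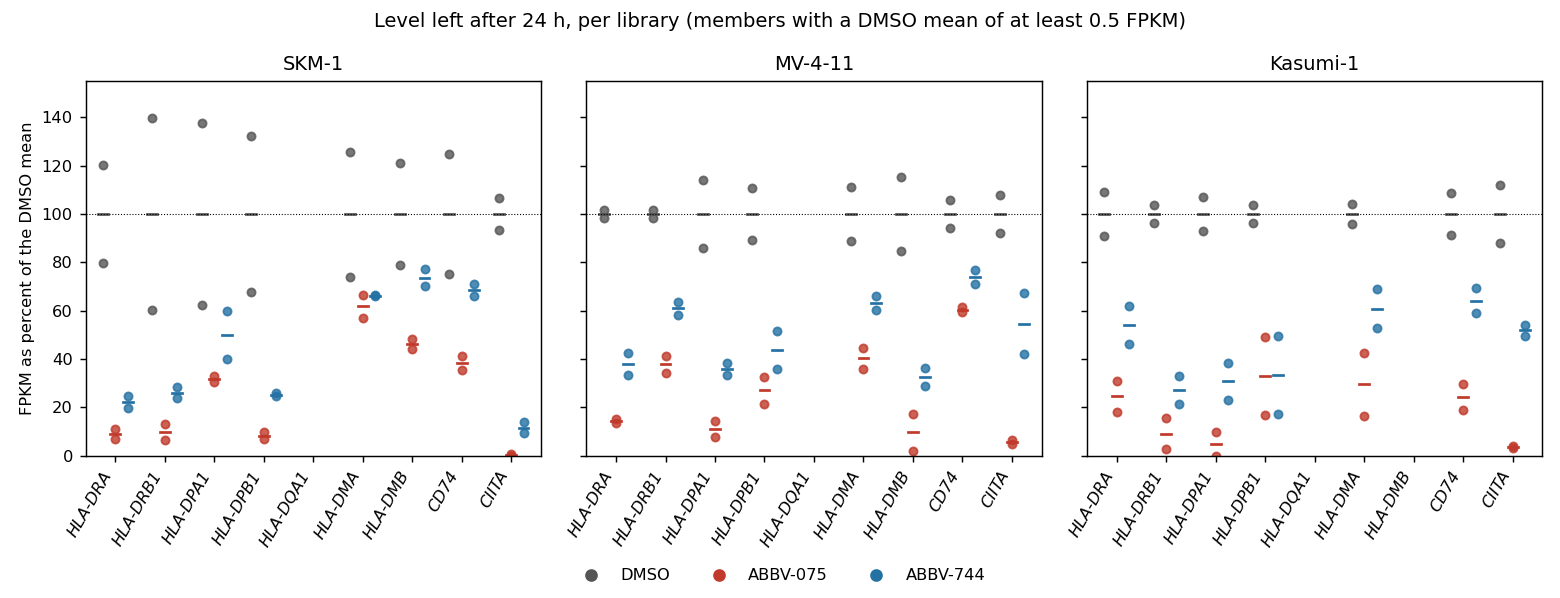
FPKM of each library as a percentage of the DMSO mean of its line (vertical axis) for members with a DMSO mean of at least 0.5 FPKM, by AML line. Points are libraries and short bars the means of 2. By mean, CIITA with ABBV-075 sits lowest, at 0.436% in SKM-1, 5.77% in MV-4-11 and 3.63% in Kasumi-1, and the SKM-1 DMSO libraries spread widely around 100%.

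**Figure D3:**
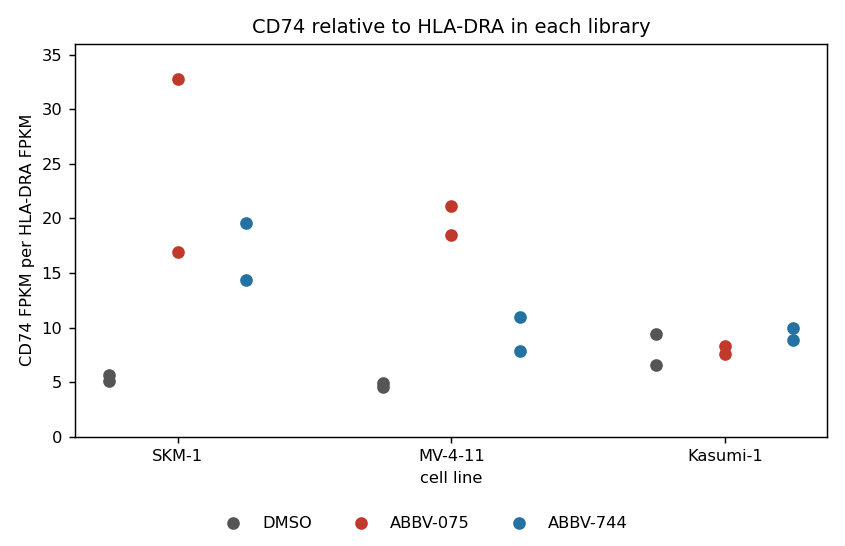
CD74 FPKM divided by HLA-DRA FPKM (vertical axis, linear) in each AML library, by line and treatment. In SKM-1 and MV-4-11 the treated libraries lie above DMSO, up to 32.8, and in Kasumi-1 the DMSO and ABBV-075 libraries overlap between 6.6 and 9.41.

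Counted over the members, ABBV-075 lowered 7 of 8 tested in SKM-1, where 29.2% of all tested rows were lower and 32% higher. It lowered 8 of 8 in MV-4-11, against 22.1% lower and 20.3% higher, and 5 of 5 in Kasumi-1, against 32.6% lower and 24.7% higher. The median member difference was -1.24, -1.28 and -1.12, against 0.05, -0.01 and -0.09 over all tested rows. ABBV-744 lowered 5 of 8 in SKM-1 (12.5% of all rows lower, 14.9% higher), 5 of 8 in MV-4-11 (6.75% lower, 4.62% higher) and 4 of 5 in Kasumi-1 (14.9% lower, 8.69% higher), with medians of -0.80, -0.69 and -0.64 against 0.05, 0.02 and -0.04. No member was called higher in an AML line with either compound. Of the tested members, 2 in SKM-1 (HLA-DPB1 and CIITA), 1 in MV-4-11 (HLA-DMB) and 2 in Kasumi-1 (HLA-DRB1 and HLA-DPB1) passed the filter only through their DMSO libraries and had to differ. HLA-DPB1 in MV-4-11 also needed its DMSO libraries to pass. These counts and medians are therefore descriptions of the genes that passed. In Kasumi-1 with ABBV-744 the count was 1 without DMSO replicate 1, 0 without DMSO replicate 2, 1 and 2 without either ABBV-744 library, and 0 in a fit of all rows. In SKM-1 with ABBV-744 the count also depended on which DMSO library was left out. The differences of the 8 tested members were all larger without DMSO replicate 2 (-2.19 to -0.53) and all smaller without replicate 1 (-1.63 to -0.07).

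**Figure D4:**
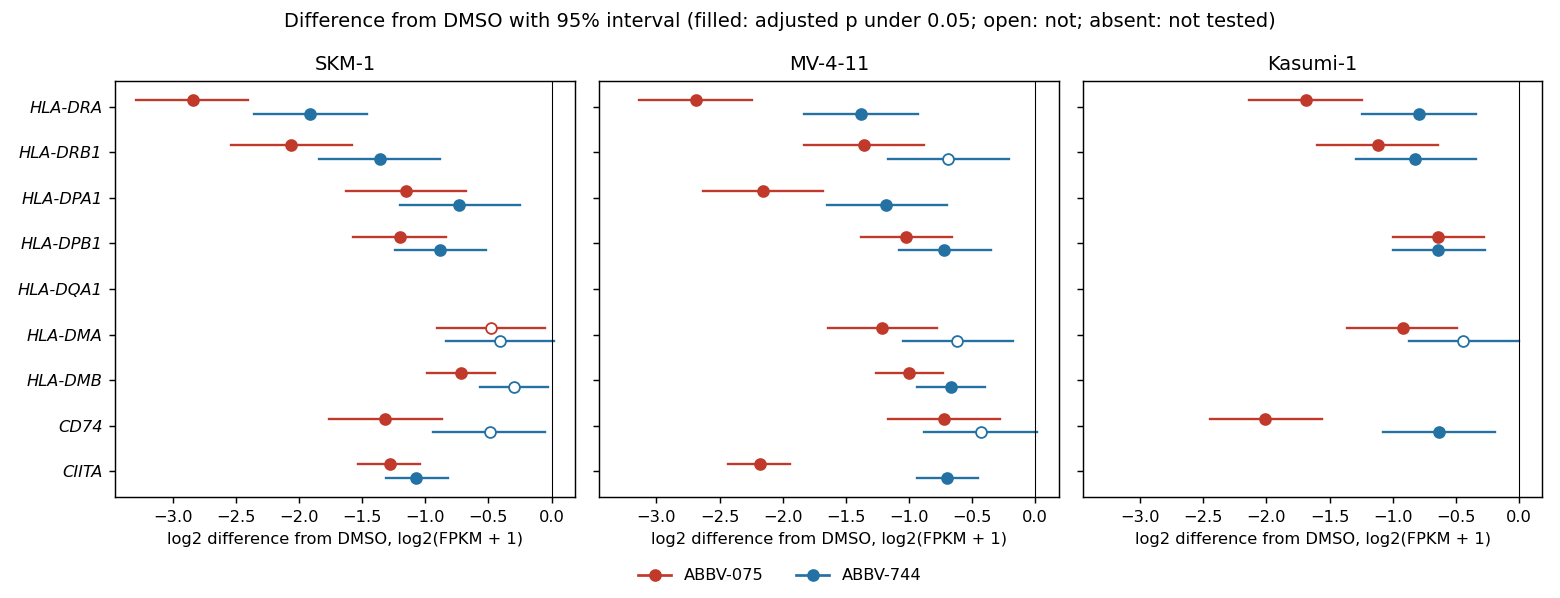
Difference from DMSO on the log2(FPKM + 1) scale (horizontal axis) with its 95% interval for every tested member, by AML line and compound. Filled points passed an adjusted p under 0.05 (limma) and open points did not. All points lie left of 0, from -2.84 for HLA-DRA in SKM-1 with ABBV-075 to -0.30 for HLA-DMB in SKM-1 with ABBV-744.

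Set side by side, the mean level left was lower with ABBV-075 at 100 nM than with ABBV-744 at 200 nM for each of HLA-DRA, HLA-DRB1, HLA-DPA1, HLA-DPB1, HLA-DMA, CD74 and CIITA in each AML line. For HLA-DPB1 in Kasumi-1 the values were nearly equal, at 33.1% and 33.5%, and for HLA-DMA in SKM-1 they were 61.9% and 66.2%. The other 2 members went the other way in 1 line each, both at levels under the filter. HLA-DMB in Kasumi-1 kept 14.2% with ABBV-075 and was listed at 0 with ABBV-744, and HLA-DQA1 in SKM-1 kept 55.1% and 19.6%. The doses differ, so this order describes these 2 treatments and not the compounds at a matched dose. Both sets of values are read against the same DMSO libraries.

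The response to ABBV-075 was also compared between the AML lines. Between SKM-1 and MV-4-11, 2 of 8 tested members were called, where 29.2% of all tested rows were called in either direction. HLA-DPA1 fell less in SKM-1, by 1.0 ± 0.32 (adjusted p = 0.0261). This call was lost without any of 5 libraries (adjusted p = 0.0511 to 0.109), and without SKM-1 DMSO replicate 2 the difference was 0.53 (adjusted p = 0.0944). CIITA differed by 0.90 ± 0.16 (adjusted p = 7.31e-04), but turned to -0.16 (adjusted p = 0.755) when 0.1 FPKM was added in place of 1. The scale lets CIITA fall further from the higher DMSO level of MV-4-11, so the size of the CIITA response cannot be ranked between these lines here.

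Against Kasumi-1, HLA-DRA fell further with ABBV-075 in SKM-1 (a difference between the responses of -1.15 ± 0.30, adjusted p = 0.0103) and in MV-4-11 (-1.0 ± 0.30, adjusted p = 0.0218). On the log2(FPKM + 1) scale HLA-DRB1 fell further in SKM-1 (-0.95 ± 0.32, adjusted p = 0.0357). With 0.1 FPKM added the difference was -0.22 (adjusted p = 0.832), and without SKM-1 DMSO replicate 1 it was -0.43. That scale allows HLA-DRB1 a fall of at most 2.73 in SKM-1 and 1.29 in Kasumi-1. The means left were 9.87% and 9.17% of DMSO, so HLA-DRB1 did not fall by a larger fraction in SKM-1. Of 5 tested members, 2 were called between SKM-1 and Kasumi-1 (30.9% of all rows) and 2 between MV-4-11 and Kasumi-1 (27.3% of all rows). CD74 went the other way: it fell by 1.28 ± 0.30 less in MV-4-11 than in Kasumi-1 (adjusted p = 0.00519), and this call held under all alternatives run. HLA-DRA and CD74 thus differed between MV-4-11 and Kasumi-1 in opposite directions. The HLA-DRA difference between SKM-1 and Kasumi-1 was lost without SKM-1 ABBV-075 replicate 1 (adjusted p = 0.0581), and that between MV-4-11 and Kasumi-1 without any of 5 libraries (adjusted p = 0.0540 to 0.0884). With 0.1 FPKM added the latter was -0.75 (adjusted p = 0.186).

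The response to ABBV-744 differed between lines for 1 member. HLA-DRA fell further in SKM-1 than in Kasumi-1 (-1.12 ± 0.30, adjusted p = 0.0483), 1 of 5 tested members, where 3.99% of all rows were called. The call ended without any of the Kasumi-1 or the SKM-1 ABBV-744 libraries (adjusted p = 0.0615 to 0.186). By limma, 0 of 8 members were called between SKM-1 and MV-4-11 (5.43% of all rows) and 0 of 5 between MV-4-11 and Kasumi-1 (3.91% of all rows). At an unadjusted p under 0.05 the counts were 1 and 0. CIITA was among the 8 with a difference of -0.37 ± 0.16 (adjusted p = 0.217). It was called with 0.1 FPKM added (-1.65, adjusted p = 0.00954) and without MV-4-11 ABBV-744 replicate 1 (-0.61, adjusted p = 0.0133), and HLA-DRB1 was called without SKM-1 DMSO replicate 2 (-1.18, adjusted p = 0.00306).

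In NCI-H1299 no member reached 1 FPKM in any library, and none was tested. HLA-DMA was highest by group mean, between 0.239 and 0.761 FPKM over its 6 libraries, but not in every library. In ABBV-075 replicate 1 HLA-DMB was at 0.605 FPKM against 0.275 FPKM for HLA-DMA. HLA-DPB1 and HLA-DQA1 were listed at 0 in all 6, and CIITA was at or under 0.0265 FPKM. HLA-DMB was at 0.0904 and 0.129 FPKM in DMSO, 0.402 and 0.605 FPKM with ABBV-075 and, with ABBV-744, 0.183 and 0.258 FPKM, higher in every treated library. In a fit of all rows its difference with ABBV-075 was 0.44 ± 0.15 (adjusted p = 0.0690), and with 0.1 FPKM added 1.51 (adjusted p = 0.0120).

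Several other class II genes of the table were lower in MV-4-11. HLA-DQB1, the partner of HLA-DQA1, went there from 10.4 and 12.7 FPKM to 4.32 and 5.15 FPKM with ABBV-075 (-1.13 ± 0.14, adjusted p = 1.24e-05) and 6.04 and 6.23 FPKM with ABBV-744 (-0.81 ± 0.14, adjusted p = 0.00150). HLA-DRB5, a further HLA-DR β chain, fell with both (-1.29 ± 0.15 and -0.65 ± 0.15, adjusted p = 5.28e-06 and 0.0110), and the pseudogene HLA-DRB6 with ABBV-075 (-0.78 ± 0.22, adjusted p = 0.0102). In SKM-1, HLA-DQB1 instead rose with ABBV-075, from 0.977 and 1.46 to 1.69 and 2.51 FPKM (0.48 ± 0.14, adjusted p = 0.00912). Of the 7 such genes found in the table, 0 of 2 tested were lower with ABBV-075 in SKM-1 (29.2% of all rows) and 3 of 4 in MV-4-11 (22.1%), and none reached the filter in Kasumi-1. With ABBV-744, 2 of 4 were lower in MV-4-11 (6.75% of all rows), and HLA-DOB, a chain of the HLA-DM inhibitor HLA-DO, was not called there with either compound (-0.24 ± 0.11 and 0.03 ± 0.11).

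The DNA-binding factors of the class II promoters were called in both directions with ABBV-075 in each AML line, as were all rows. Of the 7 (RFX5, RFXAP, RFXANK, CREB1, NFYA, NFYB, NFYC), all tested in each line, ABBV-075 raised 2 and lowered 1 in SKM-1, raised 1 and lowered 3 in MV-4-11 and raised 2 and lowered 2 in Kasumi-1. The shares of all rows were 32% higher and 29.2% lower in SKM-1, 20.3% and 22.1% in MV-4-11, and 24.7% and 32.6% in Kasumi-1. Their medians were 0.06, -0.16 and -0.10, against 0.05, -0.01 and -0.09 over all rows. NFYA, a subunit of NF-Y, rose in all 3 lines, from 12.4 and 14.1 to 35.6 and 36.4 FPKM in SKM-1 (1.38 ± 0.09, adjusted p = 3.46e-09). RFX5, the large subunit of RFX and the most abundant of the list in SKM-1, stayed at 50.3 and 52.6 FPKM there (0.06 ± 0.11, adjusted p = 0.667). In Kasumi-1 it fell from 38.1 and 40.3 to 19 and 23.5 FPKM (-0.86 ± 0.11, adjusted p = 4.93e-06). RFXAP fell in SKM-1 and MV-4-11 (-0.91 ± 0.18 and -0.63 ± 0.18) and RFXANK in MV-4-11 and Kasumi-1 (-0.91 ± 0.25 and -0.80 ± 0.25). With ABBV-744, 3 of the 7 rose in SKM-1, where 14.9% of all rows were higher. None was called in MV-4-11, against 4.62% of all rows higher and 6.75% lower. In Kasumi-1 RFX5 alone was lower (-0.31 ± 0.11, adjusted p = 0.0426), against 14.9% of all rows.

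Among 6 cofactors through which CIITA or BET proteins act on transcription, none was lower with ABBV-075 in SKM-1 or Kasumi-1 and 1 (CREBBP, -0.33) in MV-4-11. The shares of all rows that were lower were 29.2%, 32.6% and 22.1%. ABBV-075 raised 4 of the 6 in SKM-1, 3 in MV-4-11 and 3 in Kasumi-1, against 32%, 20.3% and 24.7% of all rows. The acetyltransferase genes KAT2B and EP300 and the BET gene BRD2 rose in all 3 lines. BRD2 went from 68.7 and 74.3 FPKM to 134 FPKM in both libraries of MV-4-11 (0.89 ± 0.11, adjusted p = 9.41e-06). With ABBV-744, 3 of the 6 rose in SKM-1, 2 in MV-4-11 and 1 in Kasumi-1, and none was lower. Of all rows, 14.9%, 4.62% and 8.69% were higher and 12.5%, 6.75% and 14.9% lower.

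Factors that induce or repress CIITA were called in both directions, as were all rows. ABBV-075 raised 5 and lowered 5 of 14 tested in SKM-1, raised 3 and lowered 5 of 14 in MV-4-11 and raised 4 and lowered 5 of 12 in Kasumi-1. The shares of all rows were 32% higher and 29.2% lower, 20.3% and 22.1%, and 24.7% and 32.6%. SPI1, the myeloid factor PU.1 that acts at a CIITA promoter, went from 119 and 149 to 11.4 and 14.6 FPKM in SKM-1 and from 44.9 and 51.9 to 1.7 and 4.21 FPKM in Kasumi-1. These were differences of -3.26 ± 0.24 and -3.71 ± 0.24 (adjusted p = 1.38e-08 and 4.98e-09). In MV-4-11 it was at 93.1 and 120 FPKM in DMSO and 74.2 and 78.8 FPKM with ABBV-075, below both DMSO libraries but not called (-0.46 ± 0.24, adjusted p = 0.139). With ABBV-744 it was at 128 and 158 FPKM in SKM-1 and was not called (0.10 ± 0.24, adjusted p = 0.791). Its part in the change of CIITA was not tested.

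IRF8, an interferon regulatory factor of myeloid and dendritic cells, was lower with both compounds in all 3 lines. In SKM-1 it went from 13.6 and 22.6 to 1.99 and 2.76 FPKM with ABBV-075 and, with ABBV-744, to 9.88 and 10.6 FPKM. In MV-4-11 it was the most abundant gene of the list, at 214 and 216, then 91.2 and 91.3, and 142 and 147 FPKM. The differences with ABBV-075 were -2.47 ± 0.17, -1.23 ± 0.17 and -1.16 ± 0.17 in SKM-1, MV-4-11 and Kasumi-1, the last of which was named after its value was seen. JAK1, a kinase of the interferon-γ receptor, rose in every AML line with both compounds, by 0.51 to 1.69. MYC, a standard BET target that was in the list as a repressor, fell with ABBV-075 (-5.80, -1.15 and -3.06 in SKM-1, MV-4-11 and Kasumi-1).

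Genes that process class II cargo or turn class II over were called in both directions in each line. ABBV-075 raised 6 and lowered 4 of 11 tested in SKM-1, raised 4 and lowered 3 of 10 in MV-4-11 and raised 5 and lowered 6 of 11 in Kasumi-1, with medians of 0.48, 0.14 and -0.43. The shares of all rows were 32% higher and 29.2% lower, 20.3% and 22.1%, and 24.7% and 32.6%. The lysosomal protease CTSD was higher in SKM-1 (1.0 ± 0.26) and lower in Kasumi-1 (-1.86 ± 0.26). CTSS, the protease that trims CD74, went from 13.5 and 14.1 to 0.765 and 1.19 FPKM in SKM-1, from 12.4 and 14.6 to 5.08 and 5.96 FPKM in MV-4-11 and from 7.76 and 7.82 to 0.746 and 0.957 FPKM in Kasumi-1. All were called (-2.91 ± 0.11, -1.15 ± 0.11 and -2.25 ± 0.11). With ABBV-744 CTSS did not differ in SKM-1 or MV-4-11 beyond its spread (0.07 ± 0.11 and 0.01 ± 0.11), and it was lower in Kasumi-1 (-0.94 ± 0.11, adjusted p = 2.83e-05). IFI30, the thiol reductase of the same compartment, rose with ABBV-075 in all 3 lines, in SKM-1 from 16 and 28.1 to 138 and 173 FPKM (2.81 ± 0.25, adjusted p = 1.22e-07). SPPL2A, which clears the last CD74 fragment from the membrane, rose with both compounds in all 3 lines, by 0.50 to 1.67. CTSH, another lysosomal protease, fell with ABBV-075 in all 3 lines, with differences of -1.38 to -0.66.

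Genes of the class I pathway were measured in the same libraries. Of 5 (HLA-B, HLA-C, B2M, TAP1 and NLRC5), ABBV-075 raised 1 and lowered 1 in SKM-1, raised 1 in MV-4-11 and raised 2 and lowered 3 in Kasumi-1. The shares of all rows were 32% higher and 29.2% lower, 20.3% and 22.1%, and 24.7% and 32.6%. The class I medians were 0.01, 0.09 and -0.63, against 0.05, -0.01 and -0.09 over all rows. B2M, the class I light chain and the most abundant of the list, rose in all 3 lines, in SKM-1 from 2172 and 2415 to 4593 and 5014 FPKM (1.07 ± 0.16, adjusted p = 2.29e-05). NLRC5, the class I counterpart of CIITA, fell in SKM-1 and Kasumi-1 (-1.21 ± 0.29 and -1.42 ± 0.29, adjusted p = 0.00226 and 7.29e-04) and was not called in MV-4-11 (-0.14 ± 0.29, adjusted p = 0.743). In Kasumi-1, HLA-B and HLA-C were lower with ABBV-075 (-0.63 ± 0.25 and -0.66 ± 0.25, adjusted p = 0.0390 and 0.0358). With ABBV-744 none of the 5 was lower in any AML line, against 12.5% of all rows in SKM-1, 6.75% in MV-4-11 and 14.9% in Kasumi-1. Of 8 co-stimulatory genes, 5 were tested in SKM-1. There ABBV-075 raised 2 (ICAM1, 1.88 ± 0.19, and CD58, 1.43 ± 0.29) and lowered 2 (CD86 and ICOSLG, the latter by -0.59 ± 0.20). The shares of all rows were 32% higher and 29.2% lower. CD86 went from 11.1 and 12.1 to 1.25 and 1.56 FPKM in SKM-1 with ABBV-075 (-2.39 ± 0.11) but rose with ABBV-744 there (0.66 ± 0.11) and with both compounds in MV-4-11 (0.65 ± 0.11 and 0.88 ± 0.11).

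**Figure D5:**
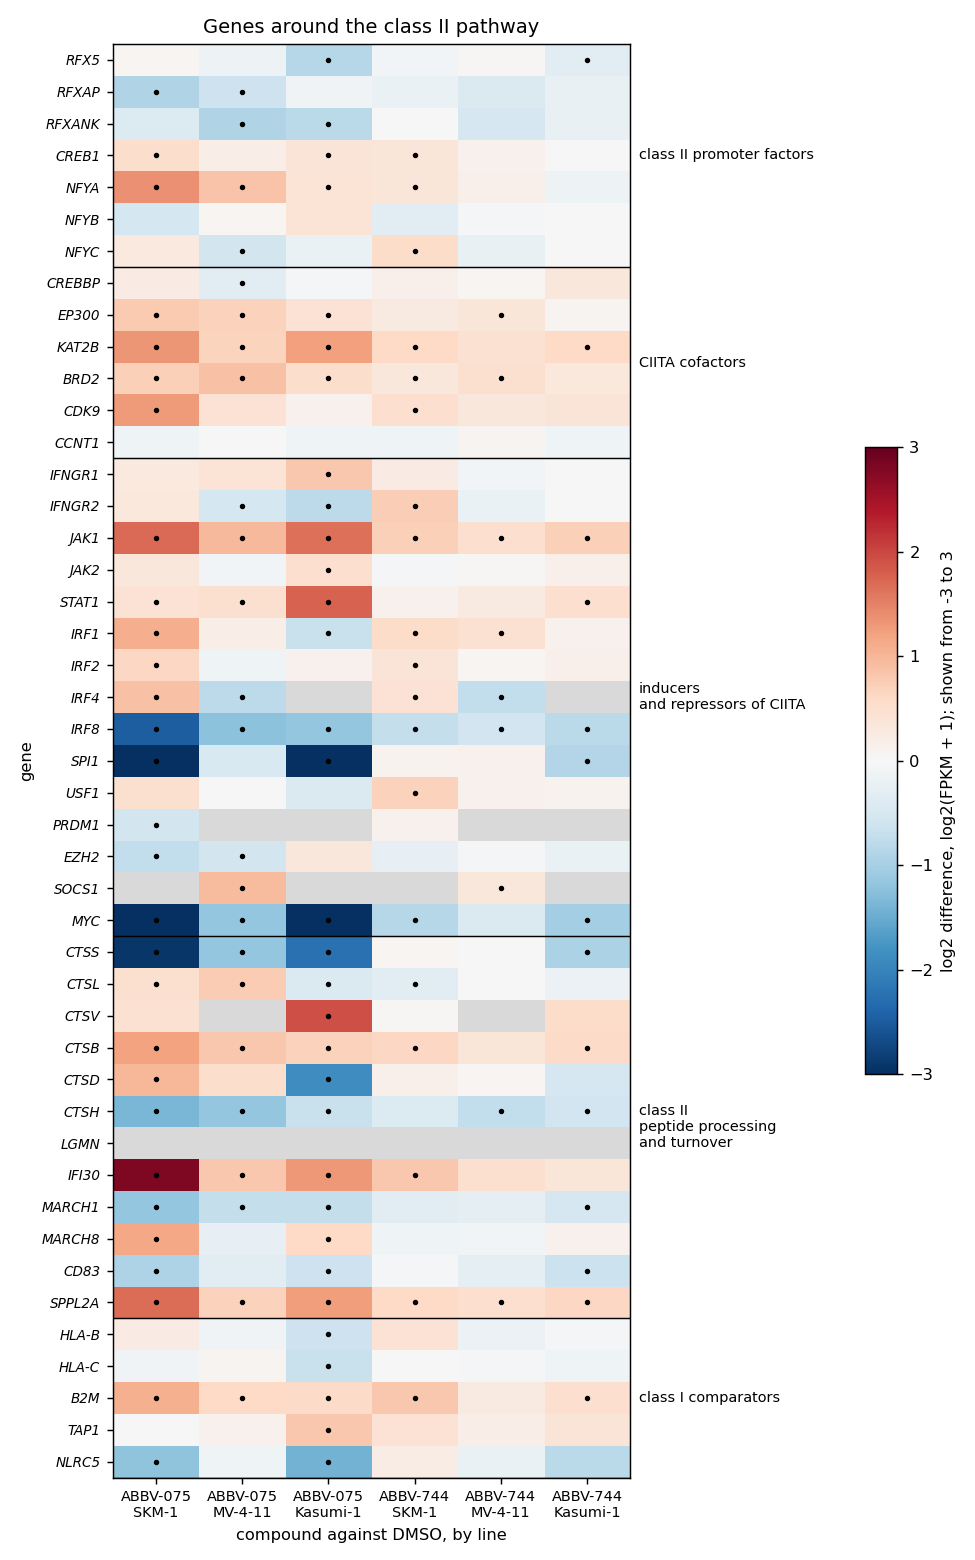
Difference from DMSO (colour, log2(FPKM + 1), cut at -3 and 3) for 5 lists of genes around the class II pathway (rows) in 6 comparisons (columns). Black dots mark an adjusted p under 0.05 (limma) and grey cells were not tested. IRF8 is blue in all 6 columns, JAK1 and SPPL2A are red in all 6, and SPI1 is darkest blue with ABBV-075 in SKM-1 and Kasumi-1.

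Markers of myeloid identity moved with the class II genes in some groups. The summed level of 7 myeloid markers (CD33, SPI1, MPO, ANPEP, CSF3R, CEBPA and ITGAM, none listed at 0) went from 2595 to 3757 FPKM in SKM-1 DMSO to 153 to 188 FPKM with ABBV-075 and 1032 to 1298 FPKM with ABBV-744. MPO, a granule enzyme, made up most of the sum in SKM-1 DMSO and in Kasumi-1. In MV-4-11 the sum was 319 to 363, then 285 to 302, and 312 to 356 FPKM. In Kasumi-1 it was 4968 to 5420, then 3340 to 5705, and 5758 to 6445 FPKM. By gene, ABBV-075 lowered 5 of 7 tested in SKM-1, lowered 1 and raised 1 of 6 in MV-4-11 and lowered 4 of 6 in Kasumi-1, with medians of -1.57, -0.40 and -1.86. Of all rows, 29.2%, 22.1% and 32.6% were lower, and in MV-4-11 20.3% were higher. The 4 markers lowered in Kasumi-1 were SPI1 (-3.71), CSF3R (-2.79), CD33 (-1.91) and ANPEP (-1.80). ABBV-744 lowered 1 and raised 1 in SKM-1, raised 1 in MV-4-11 (ITGAM, 0.91 ± 0.15) and lowered 3 in Kasumi-1. Of all rows, it lowered 12.5% and raised 14.9% in SKM-1, raised 4.62% in MV-4-11 and lowered 14.9% in Kasumi-1.

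The 5 pan-leucocyte markers summed to 295 to 302 FPKM in Kasumi-1 DMSO, 101 to 137 FPKM after ABBV-075 and 220 to 271 FPKM after ABBV-744. There ABBV-075 lowered 4 of 5 and raised 1, with a median of -1.0 (32.6% of all rows lower, 24.7% higher). In SKM-1, ABBV-744 raised 3 of 5 (14.9% of all rows). Of 7 dendritic cell markers, 4 reached 1 FPKM in MV-4-11 DMSO. Their sum there, in DMSO 162 to 184 FPKM, was 127 to 133 FPKM after ABBV-075 and 161 to 170 FPKM after ABBV-744. The receptor gene FLT3 was not called in MV-4-11 (-0.25 ± 0.14 and 0.08 ± 0.14) and rose in Kasumi-1 with ABBV-075 (0.94 ± 0.14). In MV-4-11 ABBV-075 lowered 3 of 4 tested (22.1% of all rows) and ABBV-744 lowered 2 of 4 (6.75% of all rows). The lectin CLEC10A went there from 8.76 and 10.9 FPKM to 0.0827 and 0.0908 FPKM with ABBV-075 and, with ABBV-744, to 0.337 and 0.483 FPKM. CLEC10A thus passed the filter in MV-4-11 only through its DMSO libraries and had to differ. The counts of lowered dendritic cell markers there are therefore descriptions. CLEC9A was listed at 0 in every AML library, as was XCR1 but for 1 MV-4-11 library. The 6 B cell markers summed to at most 3.06 FPKM in SKM-1 and MV-4-11. In Kasumi-1 they summed to 16.8 to 17.9 FPKM in DMSO and 3.02 to 4.32 FPKM with ABBV-075, nearly all of it CD79B. The part of these changes in those of the class II genes was not tested.

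Over the 12 group means of log2(FPKM + 1), the rows most like HLA-DRA, among 10400 with a symbol and at least 5 FPKM in some group, were UVRAG (Pearson r = 0.984), RAB33A (0.976), LPCAT1 (0.973), PTPN22 (0.972) and BCL2 (0.967). Those most like CIITA were ALDH1L2 (0.969), CCDC26 (0.964), PTPN22 (0.960), LINC00926 (0.951) and RNASE3 (0.947). Once the mean of each line was taken off, so that only the responses remained, HLA-DRA was matched most closely by RNASE3 (0.994), SRP72 (0.978), CTDSPL (0.976), PTPN22 (0.974) and ASS1 (0.972). CIITA was then matched by ASS1 (0.989), PTGER2 (0.980), CD180 (0.965), PTPN22 (0.964) and CCDC26 (0.961). Among the members, the line-centred r to CIITA was 0.964 for HLA-DPA1, 0.950 for HLA-DRA, 0.941 for HLA-DMA, 0.889 for HLA-DRB1, 0.883 for HLA-DPB1, 0.835 for HLA-DMB, 0.720 for CD74 and 0.682 for HLA-DQA1. These correlations are descriptions over 12 points that share libraries and DMSO controls, 3 of them from a line in which the members are near 0, and PTPN22 was in each of the 4 lists of 5.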

How the data were processed

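The authors deposited 1 table of FPKM values with 30373 rows and 24 columns, 1 per library and all mapped to a sample. The submitters' processing notes name DESeq2, without version or role. No aligner, quantifier, build or annotation is named in the labels or the file header. Because FPKM hold no counts, depth is unknown and intervals for counting error were not made. Values were analysed as log2(FPKM + 1) with limma 3.58.1 (statmod 1.5.0, R 4.3.3): 12 group means over 24 libraries with 12 residual degrees of freedom, eBayes with trend and robust, two-sided, Benjamini-Hochberg within each of 20 comparisons. Rows with at least 1 FPKM in 2 libraries of the line (between lines in DMSO, of the 4 DMSO libraries, and for responses, in each line) were tested, and the procedure was tested on simulated data. Errors after ± are standard errors. Replicate numbers follow deposition order. The members, lists and rules were chosen with earlier results of these data known. Named were all members, up to 4 called genes of each list and comparison by size, its most abundant gene, those not called that are described, the same genes in other comparisons (chosen after their values were seen), and the 5 rows most like HLA-DRA and CIITA. Of 107 list genes, 105 were in the table, and some genes of these pathways are not reported here. Alternatives were another added value, filter, scaling, variance model, fits of single lines and leaving out libraries. Plots used Python 3.11.15 and matplotlib 3.10.9.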

Additional observations from a re-analysis of the deposited data

Results flagged for a closer look

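These 7 results were flagged because a member's response to a compound differed between 2 AML lines in a test of the difference itself (limma, 2 libraries per group). For ABBV-075, 2 of 8 members were called between SKM-1 and MV-4-11 (29.2% of all rows). Called against Kasumi-1 were 2 of 5 for SKM-1 (30.9%) and 2 of 5 for MV-4-11 (27.3%). These counts do not set the members apart from all rows. For ABBV-744, 1 of 5 was called between SKM-1 and Kasumi-1 (3.99%), and none between the other pairs. With ABBV-075, HLA-DPA1 (1.0) and CIITA (0.90) fell less in SKM-1 than in MV-4-11 on the log2(FPKM + 1) scale, and the CIITA difference changed sign with 0.1 FPKM added. On the same scale HLA-DRA (-1.15) and HLA-DRB1 (-0.95) fell further in SKM-1 than in Kasumi-1. The HLA-DRB1 means left were nearly equal, at 9.87% and 9.17% of DMSO, and with 0.1 FPKM added its difference was -0.22 (adjusted p = 0.832). HLA-DRA (-1.0) fell further and CD74 (1.28) less in MV-4-11 than in Kasumi-1. With ABBV-744, HLA-DRA (-1.12) fell further in SKM-1 than in Kasumi-1. Only the CD74 difference held its call under every alternative run. The causes were not tested.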

How the results depend on the processing

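Of the members' differences from DMSO, none changed direction under any alternative. Leaving out single libraries changed 23 of 168 calls (19 lost, 4 gained), and testing all rows without a filter lost 7 of 42. The number of members called, with the reported count in brackets, was as follows. With a minimum of 5 FPKM, ABBV-075 called 2 in SKM-1 (reported 7), 5 in MV-4-11 (8) and 2 in Kasumi-1 (5), and ABBV-744 called 1 (5), 2 (5) and 2 (4), since fewer members pass. Fits of single lines gave, for ABBV-744, 2 in SKM-1, 8 in MV-4-11 and 1 in Kasumi-1, without a filter Kasumi-1 gave 0, and rescaled without mitochondrial transcripts SKM-1 gave 8. Leaving out 1 library gave 4 to 8 in SKM-1 and 0 to 2 in Kasumi-1 with ABBV-744. Between SKM-1 and Kasumi-1 in DMSO (reported 5) it gave 3 to 7, the minimum of 5 FPKM 1, rescaling 8 and the single fit 3. Between MV-4-11 and Kasumi-1 the minimum of 5 FPKM gave 5 (reported 8).

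For the response to ABBV-075, SKM-1 less MV-4-11 (reported 2) gave 1 without a filter, 0 at 5 FPKM, 4 rescaled, 1 in the fit of those lines and 1 to 4 with a library left out. CIITA there reversed to -0.16 with 0.1 FPKM added. SKM-1 less Kasumi-1 (reported 2) gave 1 with 0.1 FPKM added, 0 without a filter, 1 at 5 FPKM, 0 in the fit of those lines and 1 to 3 with a library left out. MV-4-11 less Kasumi-1 (reported 2) gave 1 with 0.1 FPKM added, 4 without a filter and 1 to 2 with a library left out. For ABBV-744, SKM-1 less MV-4-11 (reported 0) gave 1 with 0.1 FPKM added, 1 rescaled and 0 to 2 with a library left out. SKM-1 less Kasumi-1 (reported 1) gave 0 with 0.1 FPKM added, without a filter, at 5 FPKM and in the fit of those lines, and 0 to 2 with a library left out. The causes were not tested. Where a group kept 1 library, its spread was taken from the other groups.

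Over all rows, counts of calls moved by over 1.5 times for ABBV-075 in SKM-1 (8057, lowest 5277) and for ABBV-744 in SKM-1 (3604, lowest 260 in the single-line fit, and 1985 to 6373 with a library left out), MV-4-11 (1418, with 721 unfiltered and 730 to 865 with a library left out) and Kasumi-1 (2873, with 927 in the single-line fit and 1734 to 1830 with a library left out). In DMSO they fell to 4953 from 8263 (SKM-1 and MV-4-11) and 4357 from 8033 (SKM-1 and Kasumi-1) in fits of those lines. For responses to ABBV-075 they ran from 2246 to 5273 (SKM-1 less MV-4-11, reported 3391), 910 to 6222 (SKM-1 less Kasumi-1, 3515) and 1831 to 4590 (MV-4-11 less Kasumi-1, 3020), and for ABBV-744 from 148 to 3736 (631), 43 to 4146 (454) and 129 to 1152 (433). Of calls with ABBV-744, the share that was lower went from 45.67% to 67.05% in SKM-1, from 59.38% to 40.25% in MV-4-11 and from 63.24% to 76.64% in Kasumi-1 once rescaled without mitochondrial transcripts, and in Kasumi-1 to 52.89% by median ratio, with medians over all rows of -0.10, 0.11 and -0.13 after the first. No paired analysis was possible because the replicate numbers follow deposition order and the labels pair no libraries. Without depths, no limit can be set on values listed at 0.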
